A study of Homo sapiens with 16 samples.

Results

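The H3K27ac landscapes of TWEAK-treated MDA-MB-231 and TWEAK-treated Hs578T control cells were compared, using 4 of the 16 peak lists of the study, 2 for each line. MDA-MB-231 and Hs578T are long-established lines derived from human triple-negative breast cancers (TNBC), which lack the oestrogen and progesterone receptors and HER2 amplification. Control cells of both lines and cells in which the TWEAK receptor Fn14 had been knocked out (Fn14 KO, with an inducible CRISPR vector and 2 guides) were starved for 8 h and then left untreated or given TWEAK at 10 ng/ml for 48 h, with TWEAK replenished after 24 h. Each of these 8 groups had 2 replicates. Per the study's methods and supplement the Fn14 KO cells were checked by western blot and Sanger sequencing, with primers headed as being for CRISPR clones, but how many clones were used and what the control cells carried is not given in the sources used here. The labels do not say that replicates came from separate cultures (the study's methods state biological replicates), so p-values measure the spread between these lists. The 4 lists compared were the MDA-MB-231 control TWEAK lists, with 42392 and 43116 peaks, and the Hs578T control TWEAK lists, with 44431 and 46989 peaks. Merging overlapping peaks (1 bp or more) across all 16 lists and keeping regions found in 2 or more lists left 55219 consensus regions, and 47558 of these had a peak in at least 1 of the 4 TWEAK control lists. A region was called line-only if both lists of 1 line and neither list of the other had a peak there. This rule gave 1239 MDA-MB-231-only regions and 2702 Hs578T-only regions, hence 3941 members. Because the 4 lists themselves define these members, their numbers and heights are given as a description, without a test.

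The lists were named as labelled. In all 16 lists the start sites of *VIM*, *CD44*, *AXL* and *ZEB1*, genes of mesenchymal-type TNBC lines, carried a peak, and so did *EPCAM* and *ERBB2*. *ESR1*, *PGR*, *CDH1*, the leukocyte markers *PTPRC* and *CD3E* and the adipocyte gene *ADIPOQ* had none in any list. The endothelial markers *PECAM1* and *CDH5* and the adipocyte marker *PLIN1* had a start-site peak in every list. Hs578T is known as a line of fibroblast-like appearance, yet *TWIST1*, *TWIST2*, *PRRX1*, *CDH2*, *COL1A2*, *COL3A1* and *COL6A3* had no start-site peak in any list labelled Hs578T. Most listed genes of these kinds had one. Of 20 mesenchymal and 18 collagen genes, 12 and 14 had a start-site peak in all 4 TWEAK control lists, *FN1*, *SNAI2*, *COL1A1* and *COL6A1* among them. In each of the 2 lists of genes, 4 had no start-site region in any of the 16 peak lists. The study's methods state that its lines were typed by STR profiling, and identity was not tested in the peak lists. The files hold no reads, so the sequencing depth is unknown and a missing peak may be a region just below the calling threshold.

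H3K27ac, the acetylation of lysine 27 of histone H3, marks active promoters and enhancers. TWEAK is a cytokine of the TNF superfamily. When it binds Fn14, encoded by *TNFRSF12A*, TRAF adaptor proteins are recruited, NF-κB-inducing kinase accumulates, and NF-κB dimers enter the nucleus and bind κB sites. JNK signalling acts in parallel on AP-1, whose FOS and JUN subunits bind the heptamer TGANTCA, which is common in enhancers of mesenchymal-type breast cancer cells.

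The sequences below are examples of regions in which the lines differed, chosen with their values and motif matches known. The first 4 had no peak in any of the 4 untreated control lists: the start of *CCL20*, a chemokine gene of the NF-κB response, with a peak only in Hs578T; a region upstream of *IL1B*, the interleukin-1β gene, and a region far upstream of the ephrin receptor gene *EPHA6*, with peaks only in MDA-MB-231; and an intron of *ENTREP1*, with a peak in Hs578T only among the control lists. The fifth, an intron of the phosphodiesterase gene *PDE1C*, was MDA-MB-231-only with and without TWEAK. Capitals mark matches to TGANTCA and to the κB decamer, on either strand. The *CCL20* sequence is the 250 bases before the start site (chr2:227813592-227813841, + strand, RefSeq, GRCh38.p14) and the others are the middle 300 bases of the region (hg38, + strand): chr2:112839661-112839960 for *IL1B*, chr3:96430251-96430550 for *EPHA6*, chr9:69376520-69376819 for *ENTREP1* and chr7:31938123-31938422 for *PDE1C*. The first 4 are not typical in their letters: 3 of them hold a κB match, against 14.4% of MDA-MB-231-only and 12.3% of Hs578T-only regions without any untreated peak.
CCL20 promoter: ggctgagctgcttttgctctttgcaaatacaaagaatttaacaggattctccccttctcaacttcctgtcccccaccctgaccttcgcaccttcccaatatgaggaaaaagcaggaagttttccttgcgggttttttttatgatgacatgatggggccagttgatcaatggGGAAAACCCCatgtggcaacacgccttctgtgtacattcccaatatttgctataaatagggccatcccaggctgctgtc
IL1B upstream: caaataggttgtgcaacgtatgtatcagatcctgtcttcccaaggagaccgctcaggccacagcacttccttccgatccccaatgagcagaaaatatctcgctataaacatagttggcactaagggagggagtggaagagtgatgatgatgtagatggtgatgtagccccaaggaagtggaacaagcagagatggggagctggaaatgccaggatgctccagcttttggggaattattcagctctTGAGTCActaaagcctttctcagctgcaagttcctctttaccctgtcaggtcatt
EPHA6 upstream: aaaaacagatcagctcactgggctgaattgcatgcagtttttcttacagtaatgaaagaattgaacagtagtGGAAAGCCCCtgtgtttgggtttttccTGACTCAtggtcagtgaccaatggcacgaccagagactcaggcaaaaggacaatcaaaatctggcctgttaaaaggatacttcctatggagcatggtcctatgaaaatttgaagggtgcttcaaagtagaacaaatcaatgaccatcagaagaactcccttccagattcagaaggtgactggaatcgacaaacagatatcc
ENTREP1 intron: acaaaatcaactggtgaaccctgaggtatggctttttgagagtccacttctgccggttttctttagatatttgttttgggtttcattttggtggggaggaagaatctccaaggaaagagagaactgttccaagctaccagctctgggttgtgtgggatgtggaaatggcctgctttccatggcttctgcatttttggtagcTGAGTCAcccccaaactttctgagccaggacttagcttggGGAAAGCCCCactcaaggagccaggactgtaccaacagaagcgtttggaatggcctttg
PDE1C intron: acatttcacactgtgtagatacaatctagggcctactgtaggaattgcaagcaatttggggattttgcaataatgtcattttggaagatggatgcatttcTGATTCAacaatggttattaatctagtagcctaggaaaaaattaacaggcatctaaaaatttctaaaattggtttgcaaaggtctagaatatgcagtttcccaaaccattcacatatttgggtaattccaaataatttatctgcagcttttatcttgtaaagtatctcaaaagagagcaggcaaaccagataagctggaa
*CCL20* held 1 κB match and no TGANTCA match, *IL1B* upstream 1 TGANTCA match and no κB match, *EPHA6* and *ENTREP1* 1 match of each kind, and *PDE1C* 1 TGANTCA match. Among 35116 RefSeq promoters of the same length as that of *CCL20*, 5.21% held a κB match and 6.57% a TGANTCA match. Among the middle 300 bases of all 55219 consensus regions these shares were 5.54% and 26.1%. A match describes the letters only and is not a binding site.

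To ask whether TWEAK brought the lines closer, each MDA-MB-231 list was compared with each Hs578T list of the same treatment. The Jaccard index, the base pairs covered by both lists divided by those covered by either, was 0.745, 0.732, 0.748 and 0.740 for the 4 pairs of TWEAK lists, and 0.694, 0.694, 0.737 and 0.727 for the 4 pairs of untreated lists. All pairs of TWEAK lists but 1 lay above the highest untreated pair, and both low untreated values came from the same list, MDA-MB-231 untreated replicate 1. The means were 0.713 untreated and 0.741 with TWEAK, a difference of 0.0280 that did not pass an exact permutation test (two-sided, 36 arrangements, p = 0.111, adjusted p = 0.178 over 16 tests; the smallest p the design allows is 0.0556). Without MDA-MB-231 untreated replicate 1 the difference was 0.00909, and without replicate 2 of that group 0.0469. Replicates of 1 control group had indices of 0.762 to 0.811, above every pair of lists of different lines.

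Within a line, untreated and TWEAK lists lay farther apart than the TWEAK lists of the lines did. Untreated and TWEAK lists of MDA-MB-231 shared a mean index of 0.698 (range 0.689 to 0.703) and those of Hs578T 0.703 (0.691 to 0.716), both below the 0.741 between the TWEAK lists of the lines. Lists that differed in line and treatment were the farthest apart, with a mean of 0.661. Peak heights gave the same order: over the 30477 regions with a peak in all 8 control lists, the mean Pearson r of log2 fold enrichment (peak signal over local background) was 0.904 between lines with TWEAK, 0.885 between lines untreated, 0.861 between treatments in both lines, and 0.955 to 0.980 between replicates. The difference of 0.0192 in r between lines did not pass (exact permutation test, p = 0.222, adjusted p = 0.296). Large domains, the longest stretches left after joining neighbouring peaks and taken as common at 5 kb of overlap, were common to both lines at 83.3% with TWEAK and 83.4% untreated (difference -0.174 percentage points, exact permutation p = 0.944). This difference was 2.11 percentage points over the 1000 longest domains and 3.69 when only peaks above the pooled median −log10 q-value were kept (exact permutation p = 0.0556 for each, the smallest the design allows). In Fn14 KO cells the index between lines was 0.675 untreated and 0.664 with TWEAK, a difference of -0.0109 (exact permutation p = 0.833). The difference of the control and KO changes, 0.0389, did not pass either (exact permutation test, p = 0.312, adjusted p = 0.384). Without MDA-MB-231 Fn14 KO untreated replicate 2 it was 0.0735 (exact permutation p = 0.0247), and without replicate 1 of that group 0.00426.

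**Figure D1:**
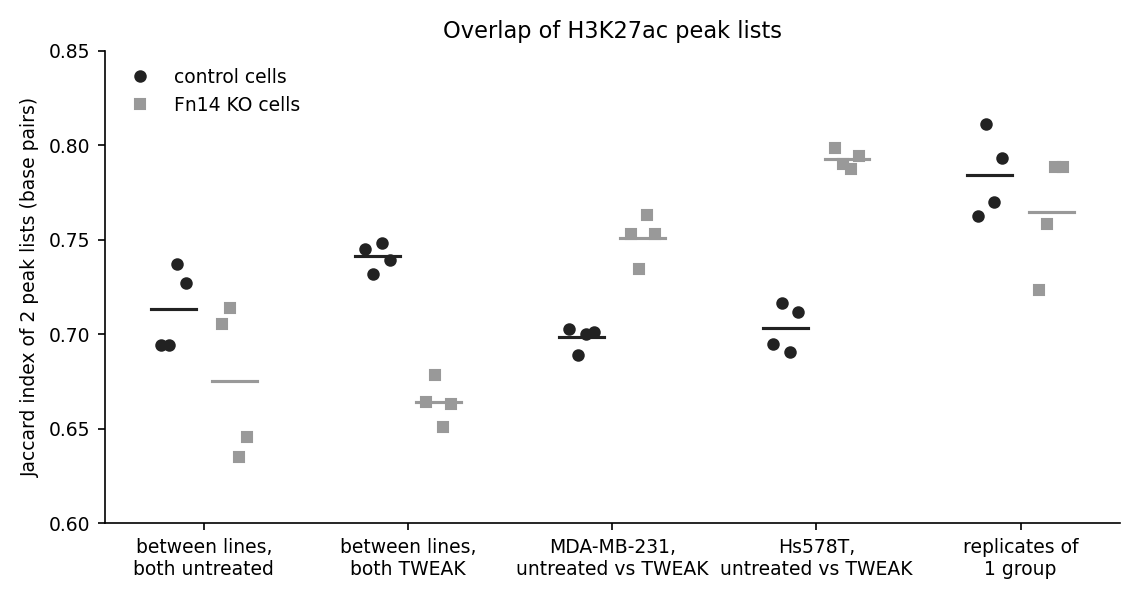
Jaccard index (base pairs shared by 2 peak lists over those covered by either; axis from 0.6) for pairs of lists, with dots for control cells, squares for Fn14 KO cells and bars for means. In control cells the pairs between lines had a mean of 0.713 untreated and 0.741 with TWEAK, and the untreated-against-TWEAK pairs lay near 0.70 in both lines, whereas the KO pairs between lines lay at 0.675 and 0.664.

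The number of line-only regions hardly moved with treatment. The 3941 line-only regions with TWEAK were 8.29% of the regions with a peak in any of the 4 lists (MDA-MB-231-only 2.61%, Hs578T-only 5.68%). Untreated control cells had 1001 MDA-MB-231-only and 2843 Hs578T-only regions, 3844 in all, so the difference was 97 (exact permutation p = 0.889, adjusted p = 0.944). Leaving out any of the 4 untreated lists made it negative, but the rule itself raises the untreated count then. A group left with 1 list needs a peak, or its absence, in that list alone. The sign therefore does not show how stable the difference was. The same 4 TWEAK lists, split so that each side held 1 list of each line, gave 642 regions for replicate 1 against replicate 2 and 572 for the crossed split, so the split by line gave 6.49 times their mean. Untreated, this ratio was 4.64, and in Fn14 KO cells it was 5.75 untreated and 9.64 with TWEAK. Hs578T-only regions outnumbered MDA-MB-231-only regions 2.18 to 1 with TWEAK. With every list cut to its 40603 highest-scoring peaks, the length of the shortest control list, this excess was gone and the numbers were 1641 and 1719. Leaving out a TWEAK list raises the TWEAK counts in the same way. Without Hs578T TWEAK replicate 2 the MDA-MB-231-only count was 2159, and without Hs578T TWEAK replicate 1 the Hs578T-only count was 4207.

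Line-only regions were low, narrow and far from promoters. Taking the lower of the 2 fold enrichments, the median was 3.12 for MDA-MB-231-only and 3.04 for Hs578T-only regions, against 5.73 for the 35076 regions with a peak in all 4 lists. Only 27 MDA-MB-231-only (2.18%) and 40 Hs578T-only regions (1.48%) exceeded 5.73. Median widths were 1045 and 1080 bp, against 2333 bp. No more than 2 kb from a protein-coding transcript start lay 10.1% of the MDA-MB-231-only and 8.22% of the Hs578T-only regions, against 33.5% of the common regions. The shares of the lines differed between chromosomes: Hs578T-only regions outnumbered MDA-MB-231-only regions 5.80-fold on chromosome 5 and by 250 to 50 on chromosome 4, but the ratio was 0.989 on chromosome 8 and 0.703 on chromosome X. On unplaced contigs 33 of 91 regions (36.3%) were MDA-MB-231-only and 1 was Hs578T-only. DNA copy number was not measured here and its part in these shares was not tested.

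Which line differences appeared only under TWEAK was read from the untreated lists of the same cells. Of the 3941 line-only regions, 987 were line-only untreated as well and 2954 were not. These 2954 fell into 3 kinds. In 1043 (26.5% of all) no untreated list of either line had a peak, so the peak was new with TWEAK in 1 line; 375 of these were MDA-MB-231-only and 668 Hs578T-only. In 706 (17.9%) all 4 untreated lists had a peak and the TWEAK lists of 1 line no longer did; 232 had lost it in Hs578T and 474 in MDA-MB-231. The remaining 1205 (30.6%) had a peak in some untreated lists. By line, 976 of the 1239 MDA-MB-231-only and 1978 of the 2702 Hs578T-only regions were not line-only untreated. These counts rose to 1857 without Hs578T TWEAK replicate 2, and to 3080 without MDA-MB-231 TWEAK replicate 2 and 3123 without Hs578T TWEAK replicate 1, respectively. A rise follows from the rule when a TWEAK list is left out. In the opposite direction, of the 3844 regions line-only untreated, 1167 (30.4%) had no peak in any TWEAK list and 606 (15.8%) had one in all 4. Larger than either line-specific gain was the gain shared by both lines, 1367 regions with a peak in all 4 TWEAK and no untreated list, while 742 were lost in both. Only 4 regions went from MDA-MB-231-only to Hs578T-only and 7 went the other way.

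The classes differed in their κB matches, a property the rule did not use. Matches were present in 14.4% of MDA-MB-231-only and 12.3% of Hs578T-only regions without any untreated peak. Regions line-only with and without TWEAK had 3.80% and 4.28%, and regions lost in the other line 2.16% and 2.11%. The regions gained in both lines had the highest share, 24.9%, and those lost in both had 2.29%, against 5.54% of all consensus regions. The AP-1 heptamer separated these classes little, being present in 32.5% of MDA-MB-231-only, 32.1% of Hs578T-only and 33.4% of jointly gained regions, against 26.1% of all. Regions new with TWEAK were also narrower (median 800 bp in MDA-MB-231 and 753 bp in Hs578T). These shares describe the regions and were not tested.

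**Figure D2:**
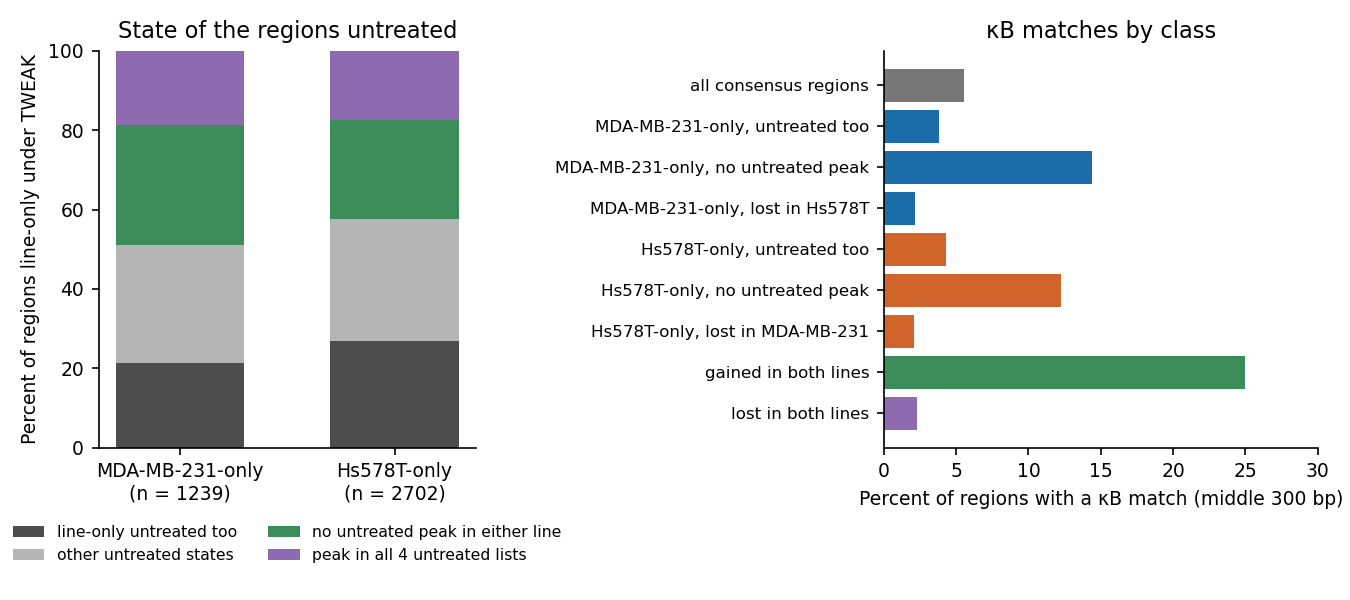
Left, percent of the regions line-only under TWEAK by their state in untreated control cells (1239 MDA-MB-231-only and 2702 Hs578T-only regions); right, percent of the regions of each class whose middle 300 bp held a κB match. New peaks of 1 line, at 14.4% and 12.3%, lay between all consensus regions (5.54%) and regions gained in both lines (24.9%).

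The 10 highest regions of each line were mostly present without TWEAK. Of the MDA-MB-231-only regions, the highest lay in the gene body of *AFAP1*, which encodes an actin filament-associated protein (chr4:7851538-7859682, fold enrichment 13.8 and 13.5 with TWEAK, 13.8 and 12.9 untreated); 1 of the 2 untreated Hs578T lists also had a peak there, of 16.9. A region downstream of *METRNL*, the gene of a secreted meteorin-like protein, had 12.1 and 14.7 with TWEAK and 8.20 and 10.0 untreated in MDA-MB-231, and no peak in any Hs578T list (chr17:83202712-83204805). The *PDE1C* intron whose sequence is given above (chr7:31936802-31939744) had 3.44 and 4.70 untreated and 7.45 and 8.13 with TWEAK, again without an Hs578T peak in control or KO cells. A region near *OR4F15* (chr15:101807065-101808828), named only by its closest gene, had 8.32 and 10.96 with TWEAK and 3.71 and 4.02 untreated. The remaining high regions lay in the gene body of *RAPGEF1*, near *CPA1*, far from *PIK3C3* and *GOT2*, on an unplaced contig and near *VIPR2*, where alone no untreated list had a peak. The *GOT2* region had a peak in all 4 Hs578T Fn14 KO lists.

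The highest Hs578T-only region was at a start site of *PRKAR1B*, a regulatory subunit of protein kinase A (chr7:603188-605457). It had fold enrichments of 18.6 and 20.5 with TWEAK and 14.8 and 15.6 untreated, and no MDA-MB-231 list had a peak there, control or KO. A region in the gene body of *ANTXR2*, an anthrax toxin receptor that binds matrix proteins, had 11.2 and 11.4 with TWEAK and 8.96 and 10.8 untreated, and 3 MDA-MB-231 Fn14 KO lists had a peak there (chr4:80095980-80099435). A region in an intron of the histone deacetylase gene *HDAC9*, for which *TWIST1* is the closest start site, had 10.1 and 13.1 with TWEAK and 11.1 and 9.63 untreated (chr7:18937358-18939494). No MDA-MB-231 control list had a peak in it, but each MDA-MB-231 Fn14 KO list did, and the same held for the regions far from *FLRT2* and within *MYO10*. Intergenic regions closest to *ID2* and *ID4*, which encode inhibitors of basic helix-loop-helix factors, had 9.20 and 13.1, and 8.99 and 9.56, with TWEAK and no peak in any MDA-MB-231 list. Of these 10 regions, the 219 bp region near *PBDC1* (chrX:76159375-76159593, 10.98 and 11.3) was the only 1 without an untreated Hs578T peak.

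Peaks that appeared with TWEAK in 1 line only were lower. In MDA-MB-231 the highest was the intergenic region near *VIPR2* (chr7:159211302-159212429, 8.62 and 7.96). The next was the *EPHA6* region (chr3:96429787-96431014, 5.59 and 5.88), followed by a region near the ion channel gene *TRPA1* (5.23 and 5.52) and an intron of *WDPCP* (chr2:63814044-63814865, 6.76 and 5.20). A region near *CAMK1G* (5.19 and 5.72), an intron of the reticulophagy receptor gene *RETREG1* (5.06 and 5.18), regions near *HAO1* and *SEC61B*, a second region near *TRPA1* and the gene body of *CDH19* made up the 10. Of these 10, 3 had a peak in an MDA-MB-231 Fn14 KO list (near *CAMK1G*, *RETREG1* and *SEC61B*) and none in an Hs578T Fn14 KO list.

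In Hs578T, the second highest new peak was the only 1 of the 20 at a start site, that of *MELTF*, which encodes the transferrin-like surface protein melanotransferrin (chr3:197027108-197029940, 8.39 and 8.70 with TWEAK). No untreated control list of either line, and no Hs578T Fn14 KO list, had a peak at it, whereas 2 MDA-MB-231 Fn14 KO lists had. An intron of the potassium channel gene *KCNJ5* (5.14 and 5.38) and an intergenic region closest to *KLF6* (chr10:4302742-4303621, 5.06 and 4.85) followed, both without a peak in any other list. The *ENTREP1* intron (chr9:69376313-69377026, 4.37 and 5.15) had a peak in 3 MDA-MB-231 Fn14 KO lists. When only the higher-scoring 50% of each list was kept, 1 of the 10 MDA-MB-231 and 2 of the 10 Hs578T new regions remained line-only, whereas all 10 of the highest regions of each line did.

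Of 12789 protein-coding genes with a start-site peak in any TWEAK control list, 76 (0.594%) had start-site peaks only in MDA-MB-231 and 126 (0.985%) only in Hs578T. The highest MDA-MB-231-only promoter was that of *LCP1*, which encodes the actin-bundling protein L-plastin, with 6.25 and 6.28 with TWEAK and 5.82 and 6.56 untreated. *SPRY3*, a Sprouty antagonist of receptor tyrosine kinase signalling, followed (7.04 and 5.59). After *MELTF*, the highest Hs578T-only promoter was *ZBTB7C*, a zinc finger gene, with 6.63 and 6.39; it also had MDA-MB-231 peaks untreated (3.80 and 4.36), which were absent with TWEAK. *TRIM29*, a gene of basal epithelia, had 5.03 and 5.04, and *CARD16*, an inhibitor of caspase-1, 5.44 and 5.27. In Fn14 KO cells several of these promoters had peaks in the other line too. All 4 MDA-MB-231 Fn14 KO lists had a peak at *ZBTB7C*, *TRIM29* and *CARD16*. At *LCP1* 3 Hs578T Fn14 KO lists had a peak, and at *SPRY3* none had.

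Among 443 genes in 17 lists chosen for the tissue and the pathway, 1 promoter was MDA-MB-231-only and 8 were Hs578T-only, of 309 with a start-site peak, beside the 0.594% and 0.985% among all promoters. The MDA-MB-231-only promoter was that of *IL1B*. Its start site had fold enrichments of 3.42 and 3.56 with TWEAK and 3.09 and 3.10 untreated, no peak in either Hs578T TWEAK list, and 1 peak of 3.67 in an untreated Hs578T list. About 2.25 kb upstream, the region given above (chr2:112839029-112840592) had 3.37 and 4.86 in MDA-MB-231 with TWEAK and no peak in the other 14 lists, which were untreated, of the other line or Fn14 KO.

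*CCL20*, whose product attracts CCR6-expressing lymphocytes and dendritic cells, was the reverse case (chr2:227813430-227814139): 3.60 and 3.08 in Hs578T with TWEAK and no peak in the other 14 lists. The other Hs578T-only start sites differed in their untreated state. *TFF3*, a trefoil peptide gene of luminal breast cells (5.46 and 7.46 with TWEAK, 8.21 and 7.42 untreated), the homeobox gene *HOXB4* (3.49 and 3.37 with TWEAK, 5.97 and 5.74 untreated), the tight-junction gene *CLDN3* and *CD38*, an NAD-consuming ectoenzyme, had peaks in Hs578T without TWEAK as well. MDA-MB-231 untreated replicate 2 also had a peak at *TFF3* (3.98) and at *CLDN3* (3.86). Of the MDA-MB-231 Fn14 KO lists, 3 had a peak at *TFF3*, 2 at *CLDN3*, 1 at *CD38* and none at *HOXB4*. *MMP11*, a stromelysin, and *TNFSF12*, which encodes TWEAK itself, had peaks in all 4 untreated lists and kept them only in Hs578T. For *TNFSF12* the values were 3.85 and 3.61 untreated in MDA-MB-231, 3.89 and 4.002 untreated in Hs578T, and 3.70 and 3.32 with TWEAK in Hs578T. *BATF*, an AP-1 family member, had a peak in 1 untreated MDA-MB-231 list (2.53), and in none with TWEAK, whereas Hs578T had 3.73 and 3.35 untreated and 3.21 and 3.09 with TWEAK. Further regions at secondary start sites were MDA-MB-231-only at *IGF1R* and Hs578T-only at *CD44*, *HOXB3*, *COL4A2*, *CCL26*, *PDGFRB* and *FGF1*. Shared gains stood beside these: the start sites of the gelatinase gene *MMP9* (4.60 and 6.09 in MDA-MB-231, 4.06 and 4.78 in Hs578T), the chemokine gene *CXCL11* (5.03 and 5.10; 4.01 and 3.61) and the integrin gene *ITGA7* had peaks in all 4 TWEAK lists and in no other list.

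**Figure D3:**
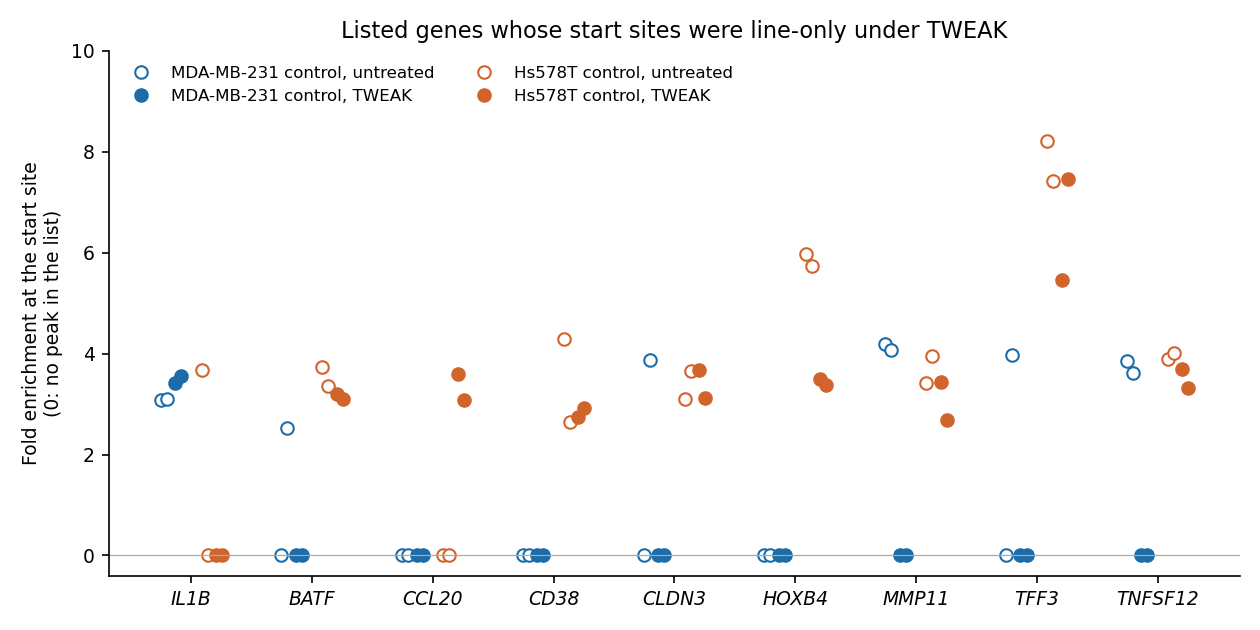
Fold enrichment at the start sites of the 9 listed genes whose promoters were line-only under TWEAK, in the 8 control lists (open, untreated; filled, TWEAK; blue, MDA-MB-231; orange, Hs578T; points at 0 are lists without a peak). *CCL20* has peaks only in the Hs578T TWEAK lists (3.60 and 3.08), while *MMP11* and *TNFSF12* have untreated peaks in both lines.

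Within 50 kb of the main start site, 5.28% of all 20046 protein-coding genes had an MDA-MB-231-only region and 10.5% an Hs578T-only region. Of the 443 listed genes, 30 (6.77%) and 86 (19.4%) did. Part of the Hs578T share came from clustered genes: 16 of 39 *HOX* genes had such a region, but only 2 distinct regions accounted for all 16, of which the *HOXB4* region was 1. The NF-κB pathway list had 2 genes of 30 with an MDA-MB-231-only and 5 with an Hs578T-only region; *TRAF3*, an inhibitor of NF-κB-inducing kinase, had 3 Hs578T-only regions in its body, of which 1 (chr14:102818984-102819789, 2.71 and 3.63) had no untreated peak. Chemokines had 0 and 6 genes of 24, growth factor receptors and ligands 1 and 9 of 37, and the TGF-β pathway 4 and 3 of 28.

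Some loci held runs of line-only regions. *PAPPA*, a metalloprotease that cleaves insulin-like growth factor-binding proteins, was the closest gene of 7 MDA-MB-231-only regions on chromosome 9, of which 6 were MDA-MB-231-only untreated too. With TWEAK the 7 ranged from 3.72 to 6.63. A region in its body (chr9:116275490-116281892) had 9.52 and 9.33 untreated and 4.78 and 4.44 with TWEAK. Each of the 7 had peaks in 3 or 4 of the 4 MDA-MB-231 Fn14 KO lists, and 1 had a peak in 1 Hs578T Fn14 KO list. In Hs578T, *ARHGEF28* had 7 line-only regions, of which 4 had no untreated peak, and *TWIST1* had 6, 4 of them within *HDAC9*. The trefoil locus on chromosome 21, with *TFF1*, *TFF2* and *TFF3*, had 4 Hs578T-only regions within 50 kb of *TFF1*, and at *TFF1* and *TFF2* themselves the lines shared a peak that was higher in Hs578T.

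*NAMPT*, the rate-limiting enzyme of NAD salvage, and *TNFRSF12A* were followed because the study centres on both. At the *NAMPT* start site, fold enrichment with TWEAK was 24.0 and 20.1 in MDA-MB-231 and 21.4 and 17.8 in Hs578T, so the lines overlapped. Untreated values were higher in each line, at 27.04 and 26.96 in MDA-MB-231 and 27.9 and 24.1 in Hs578T. Within 50 kb, 4 of 10 consensus regions had a peak in all 4 TWEAK lists, none was MDA-MB-231-only and 2 were Hs578T-only: chr7:106259432-106261201 in the gene body (2.82 and 2.85) and chr7:106303960-106304702 upstream (3.63 and 2.63). Neither had a peak in any untreated or Fn14 KO list. At *TNFRSF12A*, with TWEAK, MDA-MB-231 had 35.9 and 38.2 and Hs578T 33.3 and 35.2, with no line-only region within 50 kb. In the Fn14 KO lists its start-site peak had 16.2 to 20.9 in the MDA-MB-231 and 19.8 to 22.3 in the Hs578T lists, below every control list (32.6 to 38.2). A promoter peak does not check the knockout of the protein.

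Where both lines had a peak, height was compared with limma over the 30477 regions with a peak in all 8 control lists (log2 fold enrichment, lists centred on their median, Benjamini-Hochberg adjusted p, threshold 0.05). With TWEAK, 9710 regions (31.9%) differed between the lines, 5305 (17.4%) higher in MDA-MB-231 and 4405 (14.5%) higher in Hs578T. Without centring the split was 6233 and 2772. Leaving out MDA-MB-231 TWEAK replicate 1 or 2, or Hs578T TWEAK replicate 2, lowered the count to 5751, 5734 and 5316. Most differences were small: 312 of the called regions differed by at least 1 on the log2 scale, and the median absolute difference over all regions was 0.235 with TWEAK and 0.240 untreated.

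These differences were largely there before TWEAK. Untreated, 10311 regions (33.8%) differed, 6634 regions were called in the same direction with and without TWEAK and 12 in opposite directions, and 96.5% of the 9710 had the same sign untreated. The interaction, which tests whether TWEAK changed a line difference, called 0 regions (limma, smallest adjusted p = 0.135), while 2280 (7.48%) had an unadjusted p under 0.05. Line-only regions lack a peak in some control lists and were not in this fit. The interaction therefore cannot speak to peaks that appeared or vanished with TWEAK in 1 line. Between treatments, 10839 regions (35.6%) changed in MDA-MB-231 cells, while 9073 (29.8%) changed in Hs578T cells, of which 6930 were called in the same direction in both and 4 in opposite directions. Across regions, the line difference with TWEAK had r = 0.81 with that untreated, and these differences share no list.

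**Figure D4:**
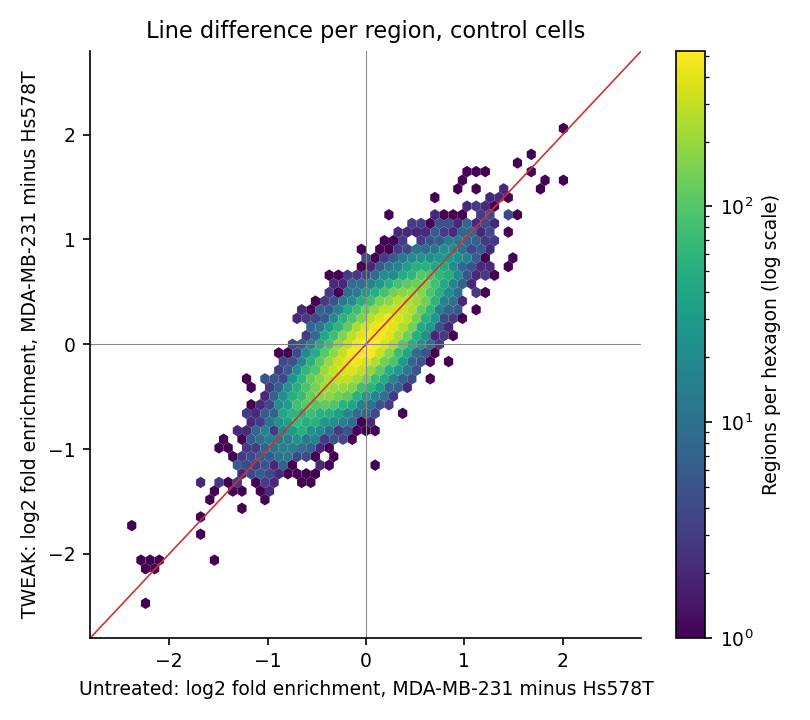
Difference in log2 fold enrichment, MDA-MB-231 minus Hs578T, with TWEAK (y axis) against untreated (x axis) in the 30477 regions with a peak in all 8 control lists, as hexagons coloured by the number of regions on a log scale, with the line of equality in red. Regions lie along the line (r = 0.81) and no interaction passed the threshold.

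Of regions higher in MDA-MB-231, the largest difference was at a start site of *PCYT1A*, the rate-limiting enzyme of phosphatidylcholine synthesis (chr3:196245580-196249141; *SLC51A* has the closest main start). It had 14.9 and 15.3 in MDA-MB-231 and 3.21 and 3.47 in Hs578T, a log2 difference of 2.11 ± 0.13 (SE; limma adjusted p = 8.5e-09), and 1.998 untreated. *MAMLD1*, an X-linked gene with a role in testis development, had 29.1 and 30.4 at its start site against 8.32 and 8.17 (1.78 ± 0.10, limma adjusted p = 3.0e-09). Some of these regions were also higher with TWEAK than untreated in MDA-MB-231. An intron of *PLS3*, which encodes the actin bundler T-plastin, had 5.995 and 7.24 untreated and 13.9 and 15.96 with TWEAK, whereas in Hs578T it had 2.97 and 2.96 untreated and 4.24 and 4.49 with TWEAK (chrX:115581673-115586500; line difference 1.70 with TWEAK, 1.12 untreated). A region in the body of *GATA3*, a luminal transcription factor gene, had 9.72 and 12.6 untreated and 16.3 and 18.0 with TWEAK in MDA-MB-231, and 4.75 and 5.39 with TWEAK in Hs578T (line difference 1.69 with TWEAK, 1.00 untreated). The interactions at *PLS3* (0.58) and *GATA3* (0.68) did not pass (limma adjusted p = 0.50 and 0.43). Regions near *NCAM2* and *NABP1*, at the start of *PABIR3*, in *NPSR1*, near *TSPOAP1* and near *LRRC30* had differences between 1.56 and 1.75.

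Of regions higher in Hs578T, the largest difference was upstream of the cadherin gene *CDH9* (chr5:27325639-27330629), with 21.8 and 22.2 in Hs578T and 4.27 and 4.26 in MDA-MB-231, a log2 difference of -2.44 ± 0.12 (SE; limma adjusted p = 1.9e-10) and -2.21 untreated. A second region upstream of *CDH9* differed by -2.03. The start site of *TFF2*, a trefoil peptide gene, had 13.9 and 17.3 in Hs578T and 3.51 and 3.85 in MDA-MB-231 (-2.15 ± 0.17, limma adjusted p = 9.1e-08). That of *SPNS2*, the sphingosine-1-phosphate transporter, had 16.8 and 18.5 against 4.15 and 4.60 (-2.08 ± 0.13, limma adjusted p = 8.5e-09). Gene-body regions of *CYP20A1*, *ARHGAP35*, *HECW2*, *FOXP1* and *CPLX2* and a region near *BMP10* differed by -2.17 to -1.60. The *HECW2* region was higher with TWEAK in both lines, with 8.94 and 8.10 untreated and 13.2 and 15.8 with TWEAK in Hs578T, and 2.60 and 2.75 untreated and 4.27 and 4.15 with TWEAK in MDA-MB-231.

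Start sites of NF-κB pathway genes that differed between the lines were higher in MDA-MB-231. Of the 29 NF-κB pathway genes with a start-site region in the fit, 17 were higher in MDA-MB-231, none was higher in Hs578T and 12 did not pass (median log2 difference 0.37), against 28.1% higher in MDA-MB-231 and 5.73% higher in Hs578T of the 11363 start-site regions (median 0.14) and a median of 0.01 over all regions. With no centring 19 were higher and with quantile scaling 13, and none was lower in either. The 5 subunit genes were all among the 17. *NFKB1* had 39.5 and 40.1 in MDA-MB-231 and 27.6 and 22.2 in Hs578T (log2 difference 0.61), and *NFKB2*, whose product is processed to p52 when Fn14 is engaged, had 38.0 and 31.4 against 23.2 and 21.7 (0.55). *RELA* differed by 0.76, *RELB* by 0.62 and *REL* by 0.85, the last with 16.6 and 17.5 against 8.91 and 9.07. *IKBKB*, a catalytic subunit of the IκB kinase, and the inhibitor *NFKBIE* differed by 0.76 and 0.84. *MAP3K14*, which encodes NF-κB-inducing kinase, did not pass (0.002), nor did *BIRC3* (-0.17) or *TRAF3* (0.09). Untreated, all 5 subunit genes differed in the same direction: *REL* by 1.12, *RELB* by 0.93, *NFKB1* by 0.73, *NFKB2* by 0.61 and *RELA* by 0.60. The untreated differences of *NFKBIE* and *IKBKB* were 0.64 and 0.49.

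The share of start-site regions higher in MDA-MB-231 grew with their height. It was 7.78% below a mean fold enrichment of 5, 21.0% from 5 to 10, 39.5% from 10 to 20 and 47.7% from 20. The NF-κB start sites had a median height of 10.6 and 17 of 29 were at or above 10, against 9.25 over all start sites, so their height moved with this result; its part was not tested.

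AP-1 and MAF factor genes were likewise higher in MDA-MB-231 in 13 of 24 and lower in 1 (15 and 1 with no centring, 8 and 1 with quantile scaling), at a median height of 18.2. *FOSB*, a FOS family subunit, had 23.6 and 21.98 in MDA-MB-231 and 9.81 and 10.1 in Hs578T, a log2 difference of 1.13 (limma adjusted p = 2.8e-07) and 0.46 untreated, with an interaction of 0.66 that did not pass (limma adjusted p = 0.24). *MAFG* differed by 0.87 (0.79 untreated) and *JUNB* by 0.71 (0.71 untreated), while *FOS* (0.23) and *FOSL1* (0.22) did not pass. *NFE2L3*, a cap'n'collar factor that dimerises with small MAF proteins, was the exception (-0.51). Of YAP, TEAD and target genes 9 of 18 were higher and 1 lower, the latter being *ANKRD1*, a YAP target (-0.63). Of interferon and STAT regulators 7 of 24 (29.2%) were higher, near the 28.1% of all start-site regions, and with quantile scaling 4 of 24 (16.7%), against 21.6% of start-site regions. Other listed genes went against this direction: of 6 chemokine genes, none was higher and 2 lower, *CXCL8*, the neutrophil chemoattractant (-0.50), and *CX3CL1*, fractalkine (-0.80). *TFF1* (-1.19), the homeobox gene *HOXB6* (-0.91), the integrin genes *ITGB4* (-0.78) and *ITGA2* (-0.73) and *CSF2* (-0.32) were also higher in Hs578T. The lists of these genes were mixed. Of 9 luminal and basal genes 4 were higher and 2 lower in MDA-MB-231, and of 10 *HOX* genes 3 and 2. Of 11 integrins 1 was higher and 2 lower, and of 12 inflammatory cytokines 5 and 1, the latter being *CSF2*. *IL7*, a lymphocyte growth factor, had 7.65 and 7.12 in MDA-MB-231 and 3.89 and 3.40 in Hs578T (0.95, limma adjusted p = 9.8e-05; 0.33 untreated, which did not pass), and its interaction of 0.62 did not pass (limma adjusted p = 0.52).

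The Fn14 KO lists were used to ask whether a line-only region followed its line. They did not enter the line-only rule, but their peaks helped to set the borders of the merged regions. Merging the 4 TWEAK control lists alone gave 1308 MDA-MB-231-only and 2813 Hs578T-only regions. Of the 263 MDA-MB-231-only regions that were so untreated too, 61.9% ± 8.49 (SD, n = 4 lists) had a peak in an MDA-MB-231 Fn14 KO list and 18.1% ± 2.82 in an Hs578T Fn14 KO list. Of the 724 such Hs578T-only regions, 73.4% ± 1.18 had a peak in an Hs578T and 26.7% ± 9.49 in an MDA-MB-231 Fn14 KO list. These differences of 43.8 and 46.7 percentage points held in every list, at the smallest p the design allows (exact permutation test, two-sided, p = 0.0556, adjusted p = 0.0988), and could not pass the threshold.

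Few regions without an untreated peak had one in Fn14 KO cells. They were chosen for lacking untreated control peaks and were low, with median lower fold enrichments of 3.08 (MDA-MB-231-only) and 2.95 (Hs578T-only). The shares over all consensus regions and over regions of like height are not given here. How far the rule and the height account for the low shares was not tested. Of the 375 MDA-MB-231-only ones, 11.9% ± 5.30 had a peak in the MDA-MB-231 and 3% ± 0.591 in the Hs578T KO lists, and of the 668 Hs578T-only ones, 12.2% ± 0.188 had one in the Hs578T and 6.18% ± 3.41 in the MDA-MB-231 KO lists. The differences, 8.87 and 5.99 points, had the same exact permutation p of 0.0556. Regions lost with TWEAK in the other line were mostly present in Fn14 KO lists: 81.7% in MDA-MB-231 and 88.5% in Hs578T for the 232 MDA-MB-231-only ones (difference -6.79, exact permutation p = 0.167), and 96.7% in Hs578T and 75.4% in MDA-MB-231 for the 474 Hs578T-only ones (21.3, exact permutation p = 0.0556). The Hs578T Fn14 KO lists held 45358 to 45885 peaks and those of MDA-MB-231 39544 to 46295; the part of list length in these differences was not tested. MDA-MB-231 Fn14 KO untreated replicate 1, the longest, had the highest percentage of its group in every set.

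**Figure D5:**
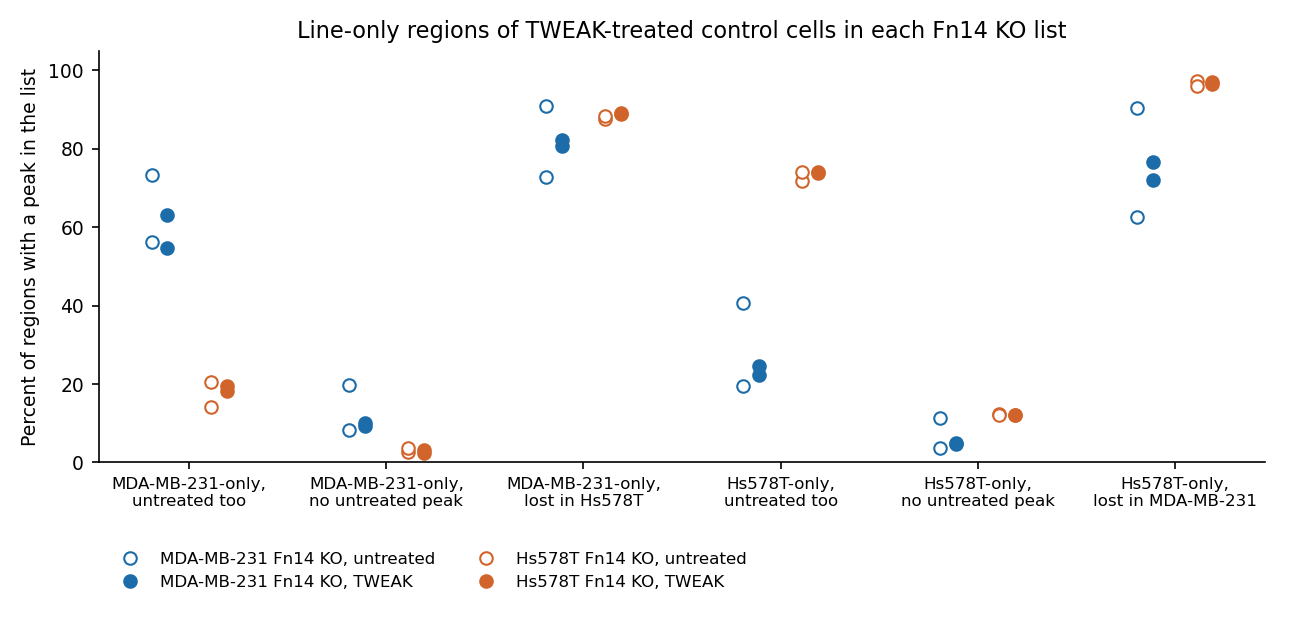
Percent of the regions line-only in TWEAK-treated control cells that had a peak in each of the 8 Fn14 KO lists (open, untreated; filled, TWEAK; blue, MDA-MB-231; orange, Hs578T), by the state of the regions in untreated control cells. Regions line-only untreated too had peaks mostly in KO lists of their own line (61.9% and 73.4% on average), and regions without an untreated peak had few in either line (at most 19.7%).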

How the data were processed

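H3K27ac ChIP-seq of MDA-MB-231 and Hs578T cells (control and Fn14 KO, untreated and TWEAK, 2 replicates each) was deposited as 1 peak list per sample, called per sample. Per the labels and the study's methods, the authors used Trimmomatic for trimming, Bowtie2 for alignment (hg38) and MACS2 with input for peak calling, and removed blacklisted regions; versions are not given in the sources used here. The deposited score, the fold enrichment (a ratio over local background) and the −log10 p-value and −log10 q-value of each peak are those of the authors' MACS2 run. The lists hold no reads, so depth is unknown and DiffBind, the authors' test, could not be run.

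Groups came from sample titles. Peaks were merged at 1 bp of overlap and a list's value in a region was the mean fold enrichment of its peaks there, weighted by peak length; where a gene had several start-site regions, its value was the highest of them, or in limma that of the region closest to the main start. Regions were annotated with GENCODE 44 (start sites within 2 kb of protein-coding transcripts; neighbourhoods of 50 kb). Heights were compared with limma 3.58.1 (R 4.3.3, line by treatment groups, median-centred log2 fold enrichment, mean trend, Benjamini-Hochberg threshold 0.05). The fit was tried on simulated data in which 100 of 30477 regions were changed by each size, with 1 spread for all regions. It recovered 96% of line differences and 75% of interactions of 1 on the log2 scale, and 28% and 5% of those of 0.5. In the data far more regions were called (31.9% for the line difference with TWEAK), so these rates need not hold there. Single values were tested with exact two-sided permutation tests (scipy 1.17.1, Python 3.11.15), with treatment exchanged within lines or line within treatments. Named regions were the 10 per set with the highest lower fold enrichment, or the largest log2 difference, and listed genes with a line-only start site. The members and gene lists were chosen with earlier results of these data known. Alternatives are given in the closing section.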

Additional observations from a re-analysis of the deposited data

Results flagged for a closer look

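In 3 of 20 groups of 4 Fn14 KO lists, 1 list stood apart by Dixon's test, which flags about 1 in 20 separate groups by chance. These groups score the same Fn14 KO lists over overlapping sets of regions, so they are not separate and this rate does not apply to them. MDA-MB-231 Fn14 KO untreated replicate 1 had a peak in 19.7% of the 375 MDA-MB-231-only regions without an untreated peak, where the other 3 MDA-MB-231 Fn14 KO lists began at 8.27%. The same list had a peak in 11.2% of the 668 Hs578T-only regions without an untreated peak, where the lowest of its group was 3.74%. It was the longest of the 4, with 46295 peaks against 39544, 41301 and 40983, and the part of list length was not tested. Hs578T Fn14 KO untreated replicate 1 had a peak in 71.7% of the 724 regions that were Hs578T-only with and without TWEAK, against a highest value of 74.2% in its group.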

How the results depend on the processing

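Of 182 values of the main results under other settings, 150 were classed as unchanged. Of the others, 19 had changed in size, 10 had reversed in direction and 3 had moved past the threshold. Counts of regions have no p-value, so for them unchanged refers to size alone. The 3956 Hs578T-only regions without MDA-MB-231 TWEAK replicate 2, against 2702, were classed so. Where the smallest possible exact permutation p was 0.0556, the design fixed the side of the threshold. With 500 bp bins in place of merged regions, MDA-MB-231-only and Hs578T-only bins numbered 5160 and 10852, those not so untreated 4374 and 8367, and the difference from untreated was -706 (exact permutation p = 0.833). With the higher-scoring 50% of each list the same 4 counts, for regions and in the same order, were 602, 1490, 496 and 1123. With lists cut to the shortest control list, Hs578T-only regions numbered 1719, and 1306 of them were not so untreated. The change in common large domains was 2.11 percentage points over the 1000 longest domains and 3.69 with peaks above the pooled median −log10 q-value, against -0.174 (both exact permutation p = 0.0556). With line labels exchanged over all 8 Fn14 KO lists, the own-line excesses of 16.4 and 27.4 percentage points had an exact permutation p of 0.0286. The cause of these changes was not tested, except that bins are smaller and the shortened lists hold fewer peaks.

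Leaving out 1 list at a time gave 1240 to 2159 MDA-MB-231-only and 2702 to 4207 Hs578T-only regions, 865 to 1857 and 1691 to 3123 of them not so untreated, and differences from untreated between -2587 and 1990; without each untreated list in turn these were -1507, -2587, -2264 and -2227. A group left with 1 list needs a peak, or its absence, in that list alone, so the line-only counts of its treatment rise by the rule. The Jaccard change ranged from 0.00909 to 0.0469 in control lists, and control minus KO from 0.00426 to 0.0735, that of large domains from -0.945 to 0.598 percentage points, limma line differences from 5316 to 10588 and interactions from 0 to 2, the lone list being assumed to vary like the other groups.

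Replicate numbers did not pair the lists (correlations of replicate deviations -0.0166 to 0.0790 between groups). With the replicate block the Jaccard change was 0.0318 (exact permutation p = 0.25) and limma called 9727 line differences and 0 interactions, and no other call changed. With 2 lists a group and unknown depth, no comparison over 36 arrangements could pass, and regions near the calling threshold limit every count.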
